A study of Rattus norvegicus with 6 samples.

Results

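The genes examined were 10 members of the activin, bone morphogenetic protein (BMP) and transforming growth factor-β (TGF-β) system, out of 17327 genes in the count files. They were taken by symbol: the activin subunit genes Inhba and Inhbb, the activin antagonist Fst (follistatin), the BMP genes Bmp2, Bmp4, Bmp6 and Bmp7, and the TGF-β genes Tgfb1, Tgfb2 and Tgfb3. All 10 were found in the files. RNA was measured in primary Schwann cells, the glia of peripheral nerves, grown from the sciatic nerves of adult female Wistar rats. The 3 mock samples received the buffer of the ligand and the 3 NRG1 samples received 10 nM soluble recombinant Neuregulin1β1 (NRG1), each for 6 h. All 6 samples had been grown with an NRG1 growth factor, then starved of it overnight in low-serum medium with forskolin, an agent that raises cAMP and promotes a differentiated state, and forskolin was also present during the stimulation. The replicate numbers 1, 2 and 3 mark independent experiments, called cultures here, each with 1 mock and 1 NRG1 library. No axons were present, so the cells are a model of Schwann cells away from their nerve.

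These ligands are secreted as dimers. TGF-βs and activins act through type I and type II receptor kinases that phosphorylate SMAD2 and SMAD3, and BMPs act through related receptors on SMAD1, SMAD5 and SMAD9; both groups of SMADs share SMAD4. Follistatin binds activin outside the cell and blocks it. In peripheral nerve, TGF-β is known as a regulator of Schwann cell proliferation, survival and myelination, and BMP7 and activin are known to act on glial differentiation and on the response to injury.

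The reference promoters show how some of these genes differ upstream. RefSeq promoter sequences of the GRCr8 build matched 7 of the 10 genes, and none was found for Bmp2, Bmp7 and Fst. Those of Bmp6 and Tgfb3 are not shown. The files were counted on the rn5 build, so genes were matched by symbol. The 250 bases before the annotated start are shown for Inhba (chr17:53804509-53804758, minus strand) and Tgfb1 (chr1:90324062-90324311, plus strand), which rose with NRG1, and for Inhbb (chr13:33089374-33089623, minus strand), Bmp4 (chr15:22101934-22102183, minus strand) and Tgfb2 (chr13:100792686-100792935, minus strand), which were counted almost wholly in 1 culture. Capitals mark motif matches.
Inhba: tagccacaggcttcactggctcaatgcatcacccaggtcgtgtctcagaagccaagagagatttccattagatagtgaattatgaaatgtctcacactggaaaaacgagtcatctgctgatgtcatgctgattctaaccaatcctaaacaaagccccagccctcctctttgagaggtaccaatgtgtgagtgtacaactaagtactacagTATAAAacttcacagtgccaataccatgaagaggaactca
Tgfb1: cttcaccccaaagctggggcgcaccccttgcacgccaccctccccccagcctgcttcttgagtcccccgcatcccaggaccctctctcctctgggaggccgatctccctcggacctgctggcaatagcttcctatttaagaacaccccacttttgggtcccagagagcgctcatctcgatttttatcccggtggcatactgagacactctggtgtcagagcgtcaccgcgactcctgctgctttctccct
Inhbb: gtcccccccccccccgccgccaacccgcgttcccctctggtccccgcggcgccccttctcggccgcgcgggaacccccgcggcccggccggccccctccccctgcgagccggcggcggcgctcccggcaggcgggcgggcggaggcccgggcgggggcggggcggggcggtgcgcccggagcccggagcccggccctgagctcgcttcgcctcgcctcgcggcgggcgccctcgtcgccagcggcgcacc
Bmp4: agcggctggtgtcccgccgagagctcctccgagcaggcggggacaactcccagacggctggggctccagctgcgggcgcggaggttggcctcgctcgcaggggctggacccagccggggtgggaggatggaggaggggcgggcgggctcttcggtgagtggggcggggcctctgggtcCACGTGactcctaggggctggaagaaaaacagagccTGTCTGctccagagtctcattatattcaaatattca
Tgfb2: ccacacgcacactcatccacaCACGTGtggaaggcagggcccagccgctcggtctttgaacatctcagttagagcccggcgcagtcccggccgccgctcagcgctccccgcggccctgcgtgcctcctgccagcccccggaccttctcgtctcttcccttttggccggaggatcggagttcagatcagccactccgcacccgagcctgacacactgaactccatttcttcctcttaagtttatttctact

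Of the 5 sequences shown, those of the activin subunit genes stood at the ends of the range in base composition, with 43.6% G and C before Inhba and 86.8% before Inhbb, while Tgfb1 had 60%, Tgfb2 61.6% and Bmp4 66.4%. Inhba held a TATA box (TATAAA), which began 40 bases before the start and which 12.9% of 33469 promoter windows hold. Bmp4 held an E-box (CACGTG, in 5.59% of windows) from 72 bases before the start and a SMAD element (CAGACA, here on the other strand, in 17.2% of windows) from 36 bases before it. Tgfb2 held an E-box from 229 bases before the start. Of the 5 motifs searched on both strands, the cAMP response element (TGACGTCA, in 1.59% of windows) and the AP-1 site (TGANTCA, in 6.34%) were not in these letters for any of the 7 matched genes. Matches are descriptions of the reference sequence, not binding sites.

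Counts on genes ranged from 6821590 to 15475018 per library, so that 3 counts, taken as the floor, were 0.194 to 0.444 CPM (counts rescaled to a common library total after TMM normalization). The 10 Schwann cell markers examined, among them Sox10, Ngfr and Erbb3, had more than 10 counts in every library. Before the results, 1 culture has to be set apart. The fibroblast markers Dcn, Lum and Thy1 were at 0 counts in all 4 libraries of cultures 2 and 3, and had 4574, 174 and 9493 counts in the mock library of culture 1. Col1a2, of the same list, had 0 counts in both libraries of culture 1 and 0 to 2 counts in the others. The summed level of the 8 fibroblast markers was 71271 to 72350 CPM in culture 1 and 15302 to 24094 CPM in cultures 2 and 3, and that of the 10 Schwann cell markers was 4964 to 6301 CPM against 12714 to 16325 CPM. Without culture 1 or with it, 4 of the 10 Schwann cell markers (among them S100b, Cdh19 and Egr2) fell with NRG1. By condition the fibroblast sum spanned 15302 to 71271 CPM in mock and 15540 to 72350 CPM in NRG1 samples, so it did not separate the conditions, and of its 4 tested markers Col3a1 fell with NRG1, by 0.98 on the log2 scale (SE 0.25) and by 1.48 without culture 1 (SE 0.19). In cultures 2 and 3 the sum came mostly from Col1a1 and Postn. Macrophage markers summed to 3.23 to 10.3 CPM, with Ptprc at 0 in all 6 libraries, with 0 of 1 tested markers passing. Endothelial markers summed to 9.35 to 14.9 CPM in mock and 6.00 to 8.88 CPM in NRG1 samples. Pecam1 and Cdh5 were at 0 in all 6, and nearly all of the counts came from Tek, which fell with NRG1. Without culture 1 Tek no longer passed (log2 fold change -0.63, SE 0.25, edgeR adjusted p = 0.063). The endothelial sum thus separated the conditions at a low level, and its part in the results was not tested. The members are therefore given with and without culture 1, and other genes where leaving it out ends a call or moves a called value by over 1.5 times.

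NRG1 stimulation raised Bmp7, Tgfb1 and Inhba and lowered Tgfb3, with the largest change in Bmp7. Fst and Tgfb2 did not pass the test over the 3 cultures, and the other 4 genes had enough counts in too few libraries to be tested. Differential expression was computed with edgeR's quasi-likelihood test, which compared the mock and NRG1 libraries within each culture. A gene passed when its Benjamini-Hochberg adjusted p was 0.05 or less. Without that pairing no gene passed, members included (1334 genes, 2 of them members, had an unadjusted p under 0.05). Of the 6 tested genes 3 rose and 1 fell, where 11.5% of the 9740 genes tested rose and 11.7% fell. Under the stricter rule of the study's methods (adjusted p up to 0.01, log2 fold change beyond 1 in size), applied to the edgeR values, 1 of the 6 rose, Bmp7, against 1.56% of all genes. The study used that rule with DESeq2. In DESeq2 with replicate block Inhba met it too, with a log2 fold change of 1.01 (DESeq2 adjusted p = 0.0079). The median log2 fold change was 0.34 over the 6 genes and -0.03 over all genes.

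**Figure D1:**
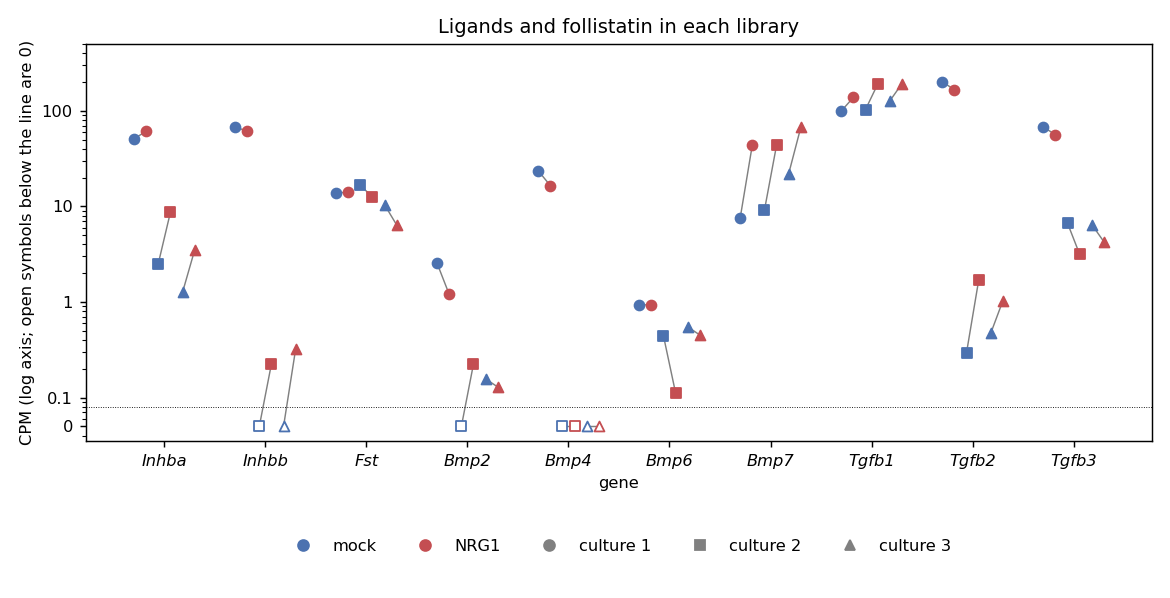
Level of each gene in each library, in CPM on a log axis, with mock in blue and NRG1 in red, a symbol shape for each culture and a line joining the mock and NRG1 library of a culture. Bmp7 and Tgfb1 rose in all 3 cultures, while Inhbb, Bmp4 and Tgfb2 were above 16 CPM in culture 1 and under 2 CPM in cultures 2 and 3; open symbols are libraries with 0 counts.

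Among the activin genes, Inhba encodes the βA subunit, whose dimer is activin A. Inhba stood at 51.2, 2.52 and 1.26 CPM in mock cultures 1, 2 and 3 and at 60.8, 8.65 and 3.49 CPM in the NRG1 cultures. It was higher with NRG1 in each culture, but the levels of the conditions overlapped because culture 1 lay far above the others. Its log2 fold change was 0.83 (SE 0.25, adjusted p = 0.027 by edgeR's test), a 1.77-fold rise. Within cultures the NRG1/mock ratio was 1.19 in culture 1 (95% exact interval 1.03 to 1.36, from 383 and 456 counts), 3.44 in culture 2 (2.02 to 6.21, from 17 and 77 counts) and 2.77 in culture 3 (1.56 to 5.18, from 16 and 54 counts). These intervals cover counting error alone, and whether the response differed between cultures could not be tested, since each culture has 1 library of each condition. Without culture 1 the log2 fold change was 1.63 (SE 0.36, edgeR adjusted p = 0.00014). Without culture 2 or culture 3 the gene no longer passed, with edgeR adjusted p-values of 0.11 and 0.059.

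Inhbb, which encodes the βB subunit of activin B, had 507 and 460 counts in mock and NRG1 libraries of culture 1. In cultures 2 and 3 it had 0 counts in both mock libraries and 2 and 5 counts in the NRG1 libraries. It was thus measured above the floor in culture 1 and in the NRG1 library of culture 3, and did not pass the filter on low counts. Fst stood at 13.9, 16.6 and 10.4 CPM in mock and at 14.0, 12.6 and 6.39 CPM in NRG1 cultures 1, 2 and 3. It was level in culture 1 and lower with NRG1 in cultures 2 and 3, and the ranges of the conditions overlapped. Its log2 fold change was -0.37 (SE 0.19, edgeR adjusted p = 0.18), and without culture 1 it was -0.55 (SE 0.25, edgeR adjusted p = 0.11). In cultures 2 and 3, then, the ligand gene Inhba had log2 ratios of 1.70 and 1.33, and the antagonist gene Fst had -0.39 and -0.69.

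Bmp7, a BMP known for its role in kidney, eye and skeletal development and for effects on glia, changed most. It stood at 7.62, 9.17 and 22.1 CPM in mock cultures 1, 2 and 3 and at 44.1, 43.8 and 67.4 CPM in the NRG1 cultures, which is 13.0 ± 7.93 CPM (SD, n = 3) against 51.8 ± 13.5 CPM (SD, n = 3). Every NRG1 library was above every mock library. The log2 fold change was 2.06 (SE 0.17, edgeR adjusted p = 4.6e-06), a 4.18-fold rise. The ratio within cultures was 5.79 (4.36 to 7.82), 4.78 (3.65 to 6.35) and 3.06 (2.67 to 3.50) by counting intervals, lowest in culture 3, where the mock level was highest. Without culture 1 the log2 fold change was 1.88 (SE 0.21).

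The other BMP genes were near the floor outside culture 1. Bmp4, which patterns many embryonic tissues, had 177 and 124 counts in the mock and NRG1 libraries of culture 1 and 0 counts in the 4 libraries of cultures 2 and 3. Against a floor of 3 counts in a library, culture 1 was at least 45.3-fold higher. Within culture 1 the NRG1/mock ratio of Bmp4 was 0.70 (counting interval 0.55 to 0.88), a value of 1 pair with no replicate check. Bmp2, a ligand closely related to BMP4, had 19 and 9 counts in culture 1 and 0 to 2 in the other libraries. Bmp6, known for its role in iron regulation, had 1 to 7 counts in all libraries, so that a response was not detectable at this depth.

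Of the TGF-β genes, Tgfb1, the main isoform of blood and wound tissue, rose in every culture. It stood at 99.5, 103.1 and 126.6 CPM in mock and at 138.0, 189.4 and 191.7 CPM in NRG1 cultures 1, 2 and 3, or 109.8 ± 14.7 CPM (SD, n = 3) against 173.0 ± 30.4 CPM (SD, n = 3). The ranges of the conditions did not overlap. The log2 fold change was 0.65 (SE 0.12, edgeR adjusted p = 0.0019), a 1.57-fold rise, and without culture 1 it was 0.74 (SE 0.18). Tgfb2, which is prominent in neural and cardiac development, had 1505 and 1247 counts in culture 1, but 2 and 15 counts in culture 2 and 6 and 16 in culture 3. It was slightly lower with NRG1 in culture 1, with a ratio of 0.83 (counting interval 0.77 to 0.89), and higher in culture 2, with 5.70 (1.32 to 51.3). In culture 3 the ratio was 2.19 and its counting interval, 0.81 to 6.82, included no change.

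The fit over 3 cultures gave Tgfb2 a log2 fold change of 0.04 (SE 0.26, edgeR adjusted p = 0.94), and the fit without culture 1 gave 1.61 (SE 0.61), from 39 counts in 4 libraries. In that fit the gene passed the filter on low counts only through its NRG1 libraries, so the value is a description and no call is drawn from it. The fit over 3 cultures thus joined pairs of opposite direction, with nearly all of the counts in culture 1. DESeq2 with replicate block gave 0.90 over the 3 cultures (DESeq2 adjusted p = 0.48). Tgfb3, the third isoform, was lower with NRG1 in all 3 cultures. It stood at 67.7, 6.66 and 6.46 CPM in mock and at 56.3, 3.15 and 4.26 CPM in NRG1 cultures 1, 2 and 3. The conditions overlapped, again because culture 1 lay above the others. The log2 fold change was -0.53 (SE 0.18, edgeR adjusted p = 0.046). This call was narrow: leaving out culture 1, 2 or 3 gave edgeR adjusted p-values of 0.054, 0.098 and 0.19, and DESeq2 with replicate block gave 0.091. The opposite direction of Tgfb1 and Tgfb3 held in each of the 3 cultures. Without culture 1, Inhba, Bmp7 and Tgfb1 again passed as higher, where 9.21% of 9926 genes tested rose. Neither Tgfb3 nor Fst passed as lower, where 9.69% fell, and both had an unadjusted p under 0.05 by edgeR. That fit has 1 residual degree of freedom for each gene and borrows most of its spread from other genes.

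**Figure D2:**
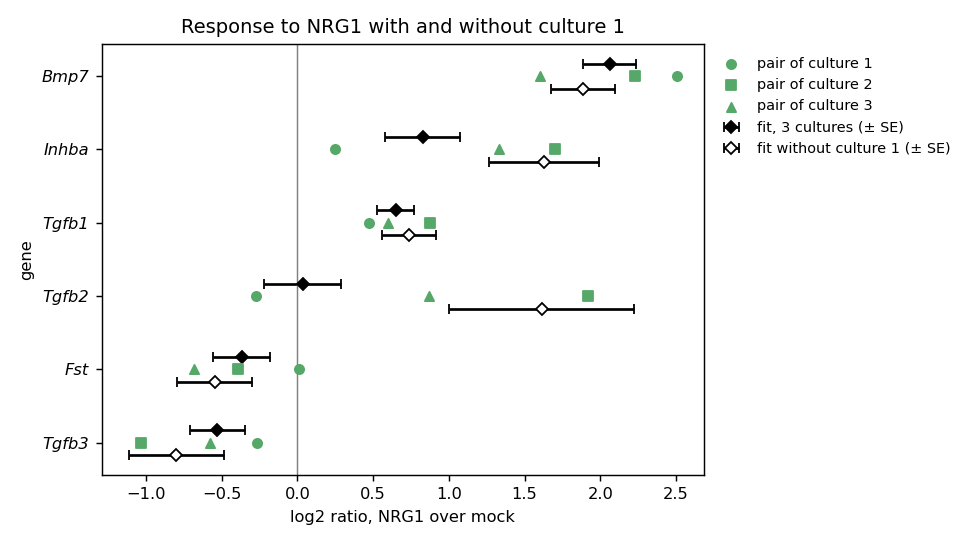
Log2 ratio of NRG1 over mock for the 6 tested genes, with the edgeR fit over 3 cultures as filled diamonds and the fit without culture 1 as open diamonds (bars, ± SE), and green symbols for the ratio within each culture. Inhba and Tgfb2 move from 0.83 to 1.63 and from 0.04 to 1.61 when culture 1 is left out, while Bmp7 and Tgfb1 change little.

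Several members differed far more between cultures than between conditions. Tgfb2, Tgfb3 and Inhba were higher in culture 1 than in cultures 2 and 3, and so were the untested Inhbb and Bmp4. The edgeR F test of the replicate term asked whether a gene's level differed between the 3 cultures at a given condition. It passed for Tgfb3, Inhba, Bmp7 and Fst and not for Tgfb1, where it passed for 36.3% of all genes tested. Tgfb2 is left out here. In this fit Tgfb2 had 2 to 16 counts outside culture 1 and passed the filter on low counts only with the culture 1 libraries. Its value is thus a description, and no call is drawn from it. The fitted log2 difference of cultures 2 and 3 from culture 1 was -7.40 and -7.87 for Tgfb2. It was -3.72 and -3.55 for Tgfb3 (edgeR adjusted p = 1.6e-09) and -3.40 and -4.63 for Inhba (edgeR adjusted p = 1.4e-08). Bmp7 differed the other way, with 0.08 and 0.99 (edgeR adjusted p = 0.0018), and Fst by 0.05 and -0.77 (edgeR adjusted p = 0.019). Tgfb1 did not pass, with 0.26 and 0.41 (edgeR adjusted p = 0.11). In bulk RNA, fewer cells of a type and less RNA per cell cannot be told apart. Between cultures 2 and 3 alone the test passed for Bmp7 (edgeR adjusted p = 0.0014), Inhba (0.02) and Fst (0.028).

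A description chosen after the values were seen counted the genes whose lower level in culture 1 was over 10 times the highest level in cultures 2 and 3. It held for 3 of the 9 members with at least 10 counts in some library (Inhbb, Bmp4 and Tgfb2), and for 3.87% of the 10717 genes with that many counts. It also held for 5 of 7 fibroblast markers (Col3a1, Dcn, Lum, Pdgfra and Thy1) and for 0 of 10 Schwann cell markers. Among the other pathway genes of the lists it held for 13 of 67. They included the receptors Acvrl1, Bmpr1b and Eng, the BMP antagonists Nog and Grem1, and Ltbp2, Lrrc32 and Fbn1, which encode a latent TGF-β binding protein, a cell-surface anchor of latent TGF-β and the matrix protein fibrillin-1. Eng, a TGF-β co-receptor, had 1802 and 2160 counts in culture 1 and 0 to 4 in the other libraries. Grem1 had 26921 and 22919 counts in culture 1 and 0 to 2 in the others. The members and markers named here were named because they met the same rule, so their shared pattern follows from it and is not a result. The part of the marker-bearing cells in the ligand levels was not tested.

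**Figure D3:**
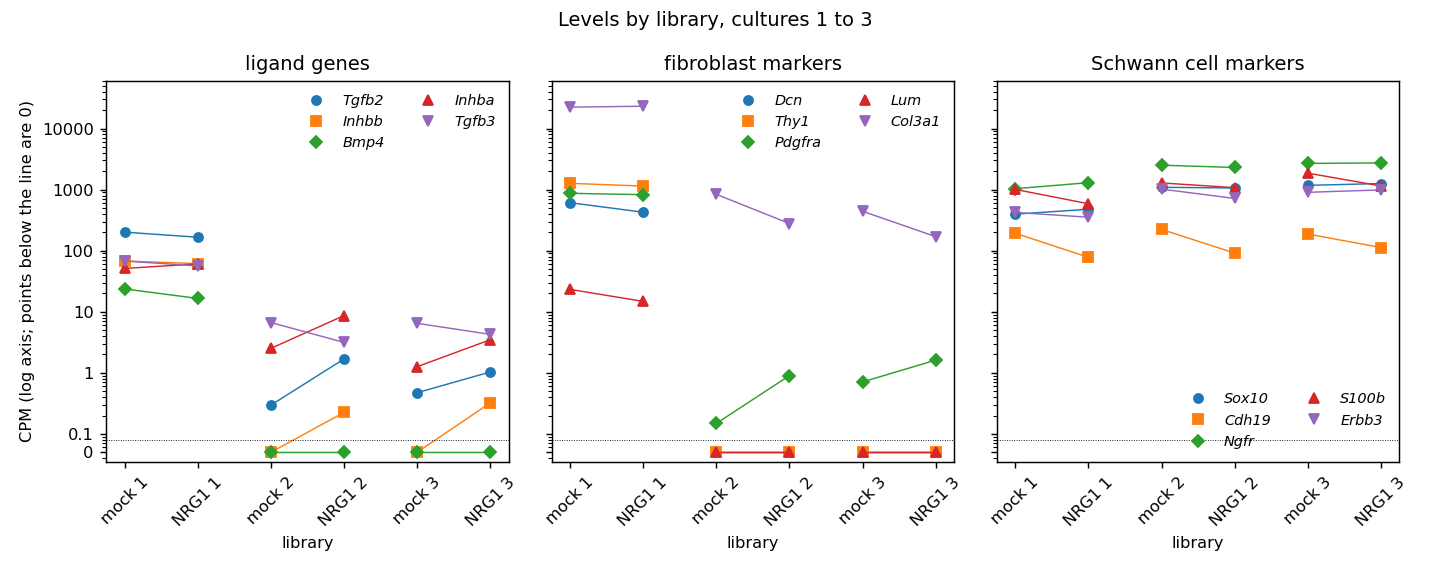
Levels in CPM on a log axis in the 6 libraries for 5 ligand genes (left), 5 fibroblast markers (middle) and 5 Schwann cell markers (right), with lines joining the mock and NRG1 library of a culture. The ligand genes and fibroblast markers shown are high in culture 1 and lower or at 0 in cultures 2 and 3. Of the Schwann cell markers shown, Sox10, Ngfr and Erbb3 are lower in culture 1 and Cdh19 is at a like level in all cultures.

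The lists around the ligands were counted against the same background of 11.5% of all tested genes higher and 11.7% lower. Of the 10 tested receptors 0 rose and 1 fell. It was Tgfbr3, the co-receptor betaglycan that presents TGF-β2 and binds inhibin, with 527.2, 967.3 and 726.3 CPM in mock and 366.6, 408.5 and 507.6 CPM in NRG1 cultures 1, 2 and 3, and a log2 fold change of -0.76 (SE 0.15, edgeR adjusted p = 0.0027). The median over the tested receptors was 0.03. Both TGF-β receptor kinases, Tgfbr1 and Tgfbr2, missed the threshold, with log2 fold changes of -0.17 (SE 0.12) and 0.16 (SE 0.15).

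Of the 12 tested SMADs and intracellular regulators 3 rose and 0 fell, where 11.5% and 11.7% of all genes did. Pmepa1, a TGF-β-induced gene whose product restrains SMAD2 and SMAD3 signalling, stood at 162.1, 111.7 and 122.5 CPM in mock and at 377.7, 358.4 and 402.1 CPM in NRG1 cultures 1, 2 and 3. The conditions did not overlap, and the log2 fold change was 1.54 (SE 0.13, edgeR adjusted p = 5.3e-06). Smad3, which carries TGF-β and activin signals, rose by 0.57 (SE 0.12), and Smurf1, a ubiquitin ligase that acts on BMP SMADs, by 0.53 (SE 0.12), both on the log2 scale. Their edgeR adjusted p-values were 0.0041 and 0.006. None of the BMP SMADs in the test, Smad1 and Smad5, nor Smad4 passed, with log2 fold changes of -0.06, 0.12 and -0.07.

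Of the 7 tested secreted antagonists 0 rose and 2 fell, beside 11.5% and 11.7% over all genes. Sostdc1, a secreted inhibitor of BMPs and Wnts, stood at 31.1, 54.0 and 30.6 CPM in mock and at 11.7, 15.3 and 11.4 CPM in NRG1 cultures 1, 2 and 3. All NRG1 libraries were below all mock libraries, and the log2 fold change was -1.56 (SE 0.15, edgeR adjusted p = 1.3e-05). Nbl1, a BMP-binding protein of the DAN family, changed by -0.69 (SE 0.12, edgeR adjusted p = 0.0013). In the 11 tested genes of latency and activation, 1 rose and 3 fell, beside the same 11.5% and 11.7%. Ltbp1, which tethers latent TGF-β to the matrix, rose by 0.66 (SE 0.12, edgeR adjusted p = 0.0017). The genes that fell were Pcsk5, a proprotein convertase, with -1.05 (SE 0.16, edgeR adjusted p = 0.00037), Tll1, a protease that frees BMPs from chordin, with -0.70 (SE 0.18, edgeR adjusted p = 0.013), and Thbs1, an activator of latent TGF-β, with -0.60 (SE 0.19, edgeR adjusted p = 0.036). Thbs1 was 2995 CPM in mock and 3055 CPM in NRG1 samples of culture 1, and 318.7 against 132.1 CPM in culture 2 and 164.5 against 110.0 CPM in culture 3. Without culture 1 its log2 fold change was -0.92 (SE 0.18), and that of Fstl3, an activin-binding antagonist that had not passed, was 0.82 (SE 0.25, edgeR adjusted p = 0.009).

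Of the 16 tested genes known as targets of TGF-β or BMP signals 4 rose and 1 fell (11.5% and 11.7% over all genes), with a median log2 fold change of 0.06. Pmepa1, which is on both lists, was among those that rose. Id1 and Id4, inhibitors of differentiation, rose too and had log2 fold changes of 0.77 (SE 0.22, edgeR adjusted p = 0.024) and 0.47 (SE 0.16, edgeR adjusted p = 0.042). The cell cycle inhibitor Cdkn1a changed by -0.45 (SE 0.13, edgeR adjusted p = 0.025). Id1 stood at 41.6 CPM in mock and 39.6 CPM in NRG1 samples of culture 1, but went from 16.4 to 52.5 CPM in culture 2 and from 31.8 to 54.7 CPM in culture 3. Without culture 1 the log2 fold change of Id1 was 1.19 (SE 0.20). Id4 was level in culture 3, at 134.7 and 132.6 CPM, and without culture 1 it no longer passed (log2 fold change 0.44, SE 0.18, edgeR adjusted p = 0.071). In that fit 3 target genes fell, Cdkn1a, the BMP-responsive transcription factor gene Atoh8 and the matrix protein gene Tgfbi, the last 2 with -0.84 (SE 0.23) and -0.58 (SE 0.18), and the inhibitory SMAD gene Smad7 rose by 0.57 (SE 0.22, edgeR adjusted p = 0.0498). The target genes thus did not move together in one direction. These genes answer to many signals, and ligand protein or receptor activity was not measured.

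**Figure D4:**
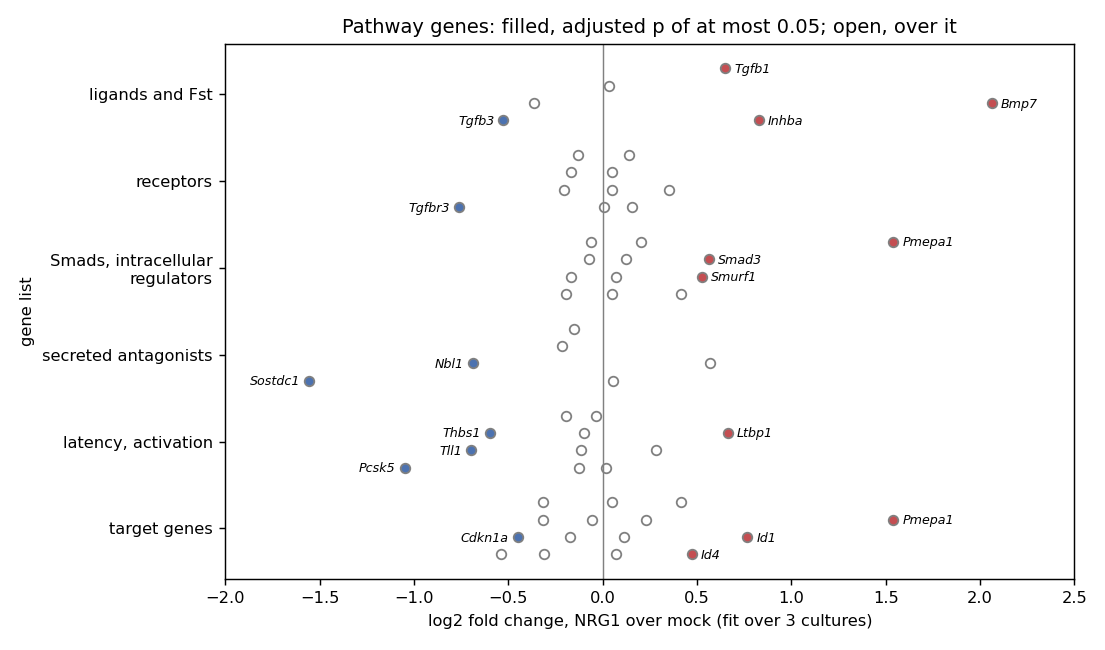
Log2 fold change of NRG1 over mock from the fit over 3 cultures for the tested genes of 6 lists, all but 2 of them, 1 point per gene, filled in red (higher) or blue (lower) where the adjusted p was 0.05 or less and open otherwise, with vertical offsets for legibility. Bmp7 and Pmepa1 lie above 1.5 and Sostdc1 below -1.5, while the receptors other than Tgfbr3 lie between -0.20 and 0.35.

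Of 22 further ligand genes of the superfamily in the files 1 was tested, Gdf11, and it did not pass, with a log2 fold change of 0.29. Gdf6, a BMP-like ligand named here after its values were seen, had 3, 3 and 6 counts in mock and 8, 14 and 32 counts in NRG1 cultures 1, 2 and 3, too few for the filter over 3 cultures. It was higher with NRG1 in every culture, a description of counts from which no call is drawn.

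The genes whose log2 CPM followed a member most closely over the 6 libraries were taken as the 3 with the highest Pearson r among the genes tested, as a description without a test. For Bmp7 they were Trap1, Ccnd1 and Smpdl3b with r of 0.997, 0.997 and 0.995, and for Tgfb1 they were Cers2, Rps7 and Eif3b with 0.998, 0.998 and 0.997. For Inhba they included Ube2f and Extl2 with 0.995 and 0.994, and for Tgfb3 B4galt1, Dixdc1 and Marveld1, each with 0.998. The 6 libraries share 3 cultures and 2 conditions, and with so few points many of the 9740 genes reach high values of r. Ccnd1 and Smpdl3b rose with NRG1 like Bmp7, by 1.39 and 1.51 on the log2 scale. The pattern of Tgfb3 followed the cultures, as did that of Dixdc1 and Marveld1.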

How the data were processed

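RNA of 6 samples (3 mock, 3 NRG1) was sequenced after poly(A) selection. The authors aligned reads to rn5 (TopHat 2.0.10), used htseq with the RefSeq transcriptome, and deposited raw counts for each gene. Whether the counting used strand is not given in the sources used here. The 5 htseq summary lines were left out, so that 47.0% to 49.9% of each file's total, the part assigned to genes, was used. Groups and replicate numbers came from the labels.

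Counts were analysed with edgeR 4.0.16 in R 4.3.3: filterByExpr by condition at a minimum count of 10 (9740 genes kept), TMM, and a quasi-likelihood fit with replicate block and condition, since the study's methods use the replicate as covariate. Adjusted p-values are Benjamini-Hochberg over all tested genes, and the SE is the log2 fold change over the square root of F. CPM use TMM-scaled library sizes, and ratios in log2 CPM a prior count of 2. Intervals within a culture are exact (Clopper-Pearson). With 3 pairs, the smallest p of an exact permutation test is 0.25. Same-numbered samples deviated together across genes (r 0.91, 0.67 and 0.81, against -0.80 to 0.51 for different numbers), and the pairing comes from the labels and the study's methods. The fits were tested on simulated data.

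The members and gene lists were chosen with earlier results of these data known. Named genes are all members, the passing genes of each list (at most 6) and, for each passing member, its 3 closest genes. A few genes that this rule names are not reported here. Alternatives were no replicate block, DESeq2 1.42.0, RLE, other filters, the study's thresholds and leaving out each replicate.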

Additional observations from a re-analysis of the deposited data

How the results depend on the processing

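RLE size factors and a minimum of 10 counts in every sample changed no count over a list by more than 1.5 times. With no replicate block 0 genes passed in either direction (smallest adjusted p 0.14, 1334 genes at an unadjusted p under 0.05), so that every count over a list, members included, was 0, and the members that had passed had log2 fold changes of 1.99 (Bmp7), 0.66 (Tgfb1), 0.41 (Inhba) and -0.35 (Tgfb3). Tgfb2 turned to -0.26 without the block, to -0.17 without replicate 2 and to -0.02 without replicate 3, and was 1.61 without replicate 1 and 0.90 with DESeq2. Its cultures went in opposite directions. DESeq2 with replicate block gave 900 genes higher and 750 lower, and 0 lower members and 0 lower target genes. The study's thresholds, applied to the edgeR fit, left 152 genes higher and 186 lower, and in the lists 1 higher member, 1 higher and 0 lower target gene, 1 higher regulator, 1 lower antagonist, 0 higher and 1 lower latency gene and 0 lower receptors. The higher member was Bmp7, and with DESeq2 Inhba met the thresholds as well. No low-count filter gave 1 further ligand and 1 antagonist higher, 2 target genes lower and 8 members different between cultures. The filter by the paired design, chosen after seeing the data, tested 10303 genes and gave 1 further ligand higher. It gave Inhbb 0.01 (edgeR adjusted p = 0.99) and Bmp4 -0.51 (edgeR adjusted p = 0.33) on the log2 scale. No call is drawn from the further ligand of these fits.

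Leaving out each replicate gave 715 to 1059 genes higher and 510 to 979 lower, against 1124 and 1136. It gave 2 to 4 members higher (the 4 include Tgfb2, which was then tested only through its NRG1 libraries) and 0 lower, 0 to 1 further ligands, receptors or antagonists higher, 0 to 3 target genes lower, and 3 to 9 members different between cultures, and 422 to 5185 genes of all different between cultures, against 3538. Where culture 1 was kept, the members different between cultures may include some high in culture 1 alone, such as Tgfb2, and no call is drawn from those. The further ligand that rose without replicate 1 was Gdf6. It had 3 and 6 counts in the mock libraries of that fit and was tested only through its NRG1 libraries, so no call is drawn from it. Depth limits Bmp2, Bmp6, Inhbb and Tgfb2, whose counts in cultures 2 and 3 lie between 0 and 16.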
